A study of Mus musculus with 4 samples.

Results

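Progenitor cells that carried c-Kit and lacked lineage markers were compared with long-term haematopoietic stem cells (LT-HSC), gene by gene, across the whole array. Each fraction was measured on 1 single-colour Agilent array. A gene entered the comparison when the probe that stood for it was well above background, by the scanner software's own flag, on at least 1 of the 2 arrays. That held for 12552 of the 20284 named genes: 10994 were well above background on both arrays, 673 on the progenitor array alone and 885 on the LT-HSC array alone. The remaining 7732 genes reached that level on neither array and are not compared.

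The cells came from bone marrow of female C57BL6 mice aged 8 weeks. LT-HSC were sorted as CD34-negative, c-Kit-positive, Sca1-positive and lineage-negative cells. The sample label of the progenitors names c-Kit and the absence of lineage markers only. A protocol text shared by every sample adds that they were Sca1-negative, and its wording on progenitors also mentions lineage-positive cells, so the exact gate is uncertain. A gate that does not remove Sca1-positive cells would also hold stem cells. The labels give neither the number of mice nor whether marrow was pooled. Short-term stem cells (ST-HSC, which differ from LT-HSC in the labels by carrying CD34) and lineage-positive cells (Lin+), with 1 array each, are used here only to set levels beside those of the 2 fractions compared.

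A level is the log2 signal minus the array's 75th percentile over all non-control probes, which lay at 192 intensity units in LT-HSC and 137 in progenitors, so a level of 0 is that percentile. A difference is the progenitor level minus the LT-HSC level, so that 1 is 2-fold higher in progenitors and -1 is 2-fold lower. Where a probe was not well above background on 1 array, the difference is a bound, given as at least N-fold against the floor of that array (-2.94 in LT-HSC, -2.87 in progenitors). The ± values are Feature Extraction's error of the 2 spots, with a median of 0.20 over the genes. They do not cover the spread between mice or sorts. With 1 array per fraction no difference could be set against replicates, so p-values are left out. Levels of different genes are not compared with each other, because each probe has its own brightness.

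Haematopoietic stem cells sit at the top of the blood system and divide rarely. Their offspring pass through c-Kit-positive progenitors that no longer renew themselves for long, divide often, and give rise to red cells, platelets, granulocytes and monocytes. The c-Kit-positive lineage-negative compartment of marrow is known to hold common myeloid, granulocyte-monocyte and megakaryocyte-erythroid progenitors side by side, so a bulk array reads their sum. In such bulk samples, fewer cells of a type and less RNA per cell cannot be told apart.

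At least 2-fold lower in progenitors were 24 of 29 long-term HSC genes, 11 of 15 Hox genes and cofactors, 18 of 28 interferon-stimulated genes, 22 of 44 signalling genes and 5 of 7 GIMAP genes. At least 2-fold higher were 28 of 42 genes of DNA replication, 30 of 45 of mitosis, 13 of 20 of one-carbon and purine metabolism and 47 of 86 of oxidative phosphorylation, the last of which became 4 of 86 after quantile normalization. Of the lineage lists, 18 of 33 erythroid genes, 21 of 28 granulocyte-monocyte genes and 15 of 19 basophil, mast cell and eosinophil genes were higher, against 2 of 25 megakaryocyte genes. Counted over all measured genes, 1941 (15.5%) were higher in progenitors by 2-fold or more and 1734 (13.8%) at least 2-fold lower. At 4-fold the counts were 388 (3.09%) and 539 (4.29%), and at 16-fold 63 and 43. The median gene differed by 0.18 (0.21 among genes well above background on both arrays). With the median gene of those measured on both arrays set to 0, 1319 genes (10.5%) were higher and 2213 (17.6%) lower, which takes the share of higher calls from 52.8% to 37.3%. Where this centring changes a list's count by more than 1 gene, or takes it to 0, the centred count follows below. Pearson's r of the levels across the 10994 genes measured on both arrays was 0.927, where genes are no independent replicates.

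**Figure D1:**
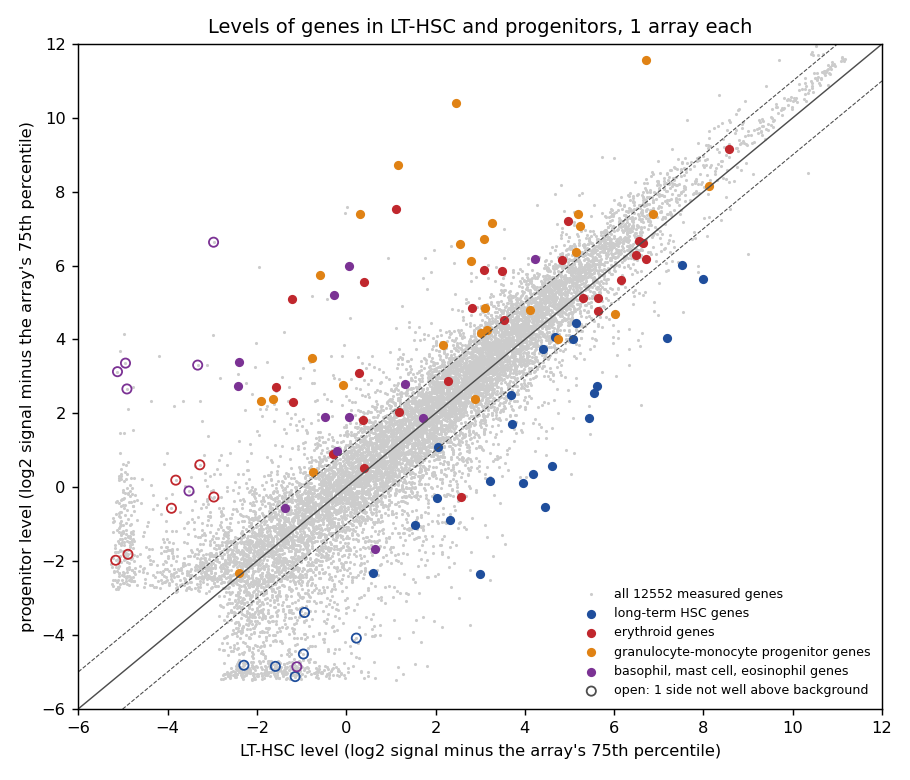
Level of each of the 12552 measured genes on the LT-HSC array (horizontal) and the progenitor array (vertical), in log2 units above the array's 75th percentile. The solid line marks equal levels and the dashed lines 2-fold, and the members of the long-term HSC list lie below the solid line without exception (29 of 29).

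The genes of the sorting proteins were read first. Cd34, the sialomucin that separates the stem cell fractions, lay at 7.34 in LT-HSC and 7.51 in progenitors, a difference of 0.17 ± 0.20. Its RNA was thus present in cells sorted as CD34-negative and at nearly the same level in progenitors. Kit, the receptor of stem cell factor, lay at 5.63 and 4.42, lower in progenitors by a difference of -1.21 ± 0.20 although both fractions were sorted as c-Kit-positive. Ly6a, which encodes Sca1, went from 4.52 to 2.28, a difference of -2.25 ± 0.20. Ly6a signal in progenitors remained well above background.

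Markers of the 2 fractions followed their labels. Procr, which encodes the endothelial protein C receptor and marks long-term stem cells, lay at 4.44 in LT-HSC and -0.52 in progenitors (-4.96 ± 0.21). Hlf, a stem cell transcription factor, lay at 5.09 and 0.94 (-4.15 ± 0.21). Mpo, the neutrophil granule peroxidase, lay at 6.70 and 11.58 (4.87 ± 0.20), and Car1, a carbonic anhydrase of erythroid progenitors, at 3.09 and 5.87 (2.78 ± 0.20). The first pair was lower and the second pair higher in progenitors. Mpo and Car1 were well above background in LT-HSC too. Of the lineage antigens, Cd8a was at least 3.38-fold higher in progenitors. The brightest probes of Itgam, which encodes CD11b, and Cd4 gave nearly the same signal on all 4 arrays (5.17, 5.03, 4.83 and 5.07 for Itgam in LT-HSC, ST-HSC, progenitors and Lin+ cells). What those 2 probes detect was not tested.

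The 29 genes of the long-term HSC list were all measured, and 24 were at least 2-fold lower in progenitors with 0 higher. The list's median was -2.35, against 0.18 for all genes. Among the 13 surface proteins 12 were lower. Robo4, a guidance receptor that anchors stem cells in the niche, went from 4.60 to 0.57 (-4.02 ± 0.21), and Esam, a junctional adhesion protein, from 4.19 to 0.36 (-3.83 ± 0.21). Both were lower still in Lin+ cells, at -2.18 and -4.77. Slamf1, the CD150 antigen, went from 0.59 to -2.32 (-2.91 ± 0.31). Pdzk1ip1 went from 7.18 to 4.03 (-3.14 ± 0.20). Tek, the angiopoietin receptor, was dim in LT-HSC at -1.14 and was at least 3.3-fold lower. The surface gene outside the calls was Cd9, a tetraspanin also abundant on platelets, with 4.67 and 4.06 (-0.61 ± 0.20).

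Among the 16 intracellular members 12 were lower. Cyp26b1, an enzyme that degrades retinoic acid, had the lowest difference of the list, from 3.01 to -2.36 (-5.37 ± 0.32). Rarb, a retinoic acid receptor, was at least 8.54-fold lower. Sult1a1, a sulfotransferase, went from 3.96 to 0.10 (-3.85 ± 0.21), Tgm2, a transglutaminase, from 5.43 to 1.87 (-3.56 ± 0.20), Ctnnal1 from 2.33 to -0.88 (-3.21 ± 0.22) and Gprasp2 from 3.23 to 0.18 (-3.05 ± 0.21). Other members stayed closer. Aldh1a1, an aldehyde dehydrogenase, lay at 4.41, 0.01, 3.74 and 5.44 in LT-HSC, ST-HSC, progenitors and Lin+ cells, and Vwf, von Willebrand factor, at 5.14, -0.13, 4.45 and 0.59. For both genes the progenitor level was within 1 log2 unit of LT-HSC and the ST-HSC level was more than 4 units below it.

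Of 10 transcription factors biased to HSC 9 were lower (median -3.65). Nkx2-3, a homeodomain factor, lay at 3.15 in LT-HSC and -1.36 in progenitors (-4.51 ± 0.24). Prdm16, a zinc finger factor needed for stem cell maintenance, lay at 1.81 and -2.42 (-4.23 ± 0.32), Tcf15 at 2.32 and -1.63 (-3.95 ± 0.24), and Gata3 at 1.81 and -1.97 (-3.79 ± 0.28). Hoxb5 was at least 11.4-fold lower and the imprinted gene Ndn at least 7.29-fold. Zfp105 was the exception, at least 3.7-fold higher from a signal not well above background in LT-HSC. Of 17 factors used broadly by stem and progenitor cells 7 were lower and 1 was higher, or 8 and 0 centred (median -0.62). Mycn, a Myc family factor, went from 3.62 to 0.48 (-3.14 ± 0.21), Meis1 from 6.53 to 3.99 (-2.54 ± 0.20), Erg from 2.39 to 0.22 (-2.17 ± 0.21) and Gata2 from 5.56 to 4.49 (-1.07 ± 0.20). Lyl1 (7.18 and 7.39) and Myb (6.55 and 6.66) were close to level, and Gfi1, a repressor active in stem cells and granulocytes, was higher (1.14 ± 0.20).

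Hox genes, which set progenitor identity along with their cofactors, were measured for 15 of 24 listed symbols on the array, with 11 lower and 0 higher (median -1.45), or 6 lower with normexp background correction. Hoxa5 went from 1.83 to -2.44 (-4.27 ± 0.30), Hoxa3 from 1.08 to -1.83 (-2.91 ± 0.25) and Hoxb4, a gene used to expand stem cells, from 2.15 to 0.14 (-2.01 ± 0.21). Hoxb2 was at least 12.3-fold and Hoxa10 at least 11.3-fold lower, both not well above background in progenitors. Hoxa9 differed by -1.44 ± 0.23 and Hoxa7 by -0.72 ± 0.20. The cofactors Pbx2 (3.26 and 3.20) and Pknox1 (1.27 and 1.45) were near level, and Pbx3 was lower (-1.02 ± 0.21).

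Of 44 signalling genes 22 were at least 2-fold lower and 1 was higher, or 24 and 0 centred (median -1.003). In the TGF-beta and BMP group, where ligands hold stem cells out of cycle, 11 of 20 were lower, or 13 centred. The ligand Tgfb3 differed by -2.12 ± 0.34 and the co-receptor Tgfbr3 by -1.64 ± 0.21, while the ligand Tgfb1 gave 2.93 and 3.53 (0.60 ± 0.20). The inhibitory Smad6 (-2.41 ± 0.33) and Smad7 (3.47 to 1.51, -1.96 ± 0.20) were lower, and so was the target Id1, a helix-loop-helix inhibitor (4.72 to 2.65, -2.06 ± 0.20). The signal transducer Smad4 differed by -0.74 ± 0.20. Of 13 Notch and Wnt genes 6 were lower and 1 was higher, or 6 and 0 centred. The Notch targets Hey1 and Hes1 were at least 50.1-fold and at least 23.2-fold lower, from levels of 2.78 and 1.67 in LT-HSC. The ligand Jag2 differed by -2.85 ± 0.28 and the receptor Fzd4 by -4.01 ± 0.26 (2.45 to -1.56), while Notch2 (-0.39 ± 0.20) and Ctnnb1, which encodes beta-catenin (-0.14 ± 0.20), were within 2-fold.

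Of 11 regulators of cytokine signalling 5 were lower and 0 higher. Among the lower ones were SOCS family members, which block JAK-STAT receptors: Socs3 went from 6.33 to 3.73 (-2.59 ± 0.20), Cish from 4.96 to 2.63 (-2.33 ± 0.20) and Socs1 from 2.47 to 0.62 (-1.85 ± 0.21), and Socs2 was at least 6.4-fold lower. The phosphatases Ptpn6 (4.73 and 4.74) and Ptpn11 (5.28 and 5.61) and the adaptor Sh2b3 (2.77 and 2.89) were near level. The adaptor Dok2 was lower (-1.22 ± 0.20).

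Interferon-stimulated genes, the antiviral programme that stem cells keep partly switched on, were lower for 18 of 28 with 0 higher, and their median was -1.38. Oas2, an oligoadenylate synthetase, went from 3.31 to -0.21 (-3.52 ± 0.21) and Oasl2 from 4.48 to 1.33 (-3.15 ± 0.20). Gbp2, a guanylate-binding protein, went from 3.56 to 0.65 (-2.91 ± 0.21) and Rsad2, viperin, from 1.83 to -0.70 (-2.53 ± 0.22). Ifi44 was at least 23.9-fold and Ifit3 at least 7.16-fold lower, neither well above background in progenitors. The regulators Irf1 (6.49 and 6.24) and Irf9 (4.52 and 3.99) were within 2-fold. The ST-HSC levels of Oas2 (2.51), Gbp2 (2.70) and Ifi44 (0.97) lay between those of the 2 fractions.

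The GIMAP family, small GTPases best known from lymphocyte survival, had the lowest list median of all 48 lists (-3.17 over 7 measured genes). Of these 5 were lower and 1 was higher, or 5 and 0 centred. Gimap6 went from 6.33 to 3.31 (-3.01 ± 0.20), Gimap1 from 5.07 to 1.87 (-3.20 ± 0.20) and Gimap5 from 3.49 to 0.31 (-3.17 ± 0.21). Gimap8 was at least 42-fold and Gimap3 at least 15.1-fold lower. The higher gene, Gimap4, has probes that disagree in sign, and its call did not hold with the mean of its probes. MHC class II genes were lower for 4 of 8 (median -1.06), with H2-Aa at -1.89 ± 0.25 and the invariant chain Cd74 at -1.78 ± 0.21 against -0.15 ± 0.20 for H2-Ab1. Of 11 imprinted genes 5 were lower and 0 higher, among them Dlk1 (-2.82 ± 0.34) and Slc22a18 (-2.14 ± 0.20).

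**Figure D2:**
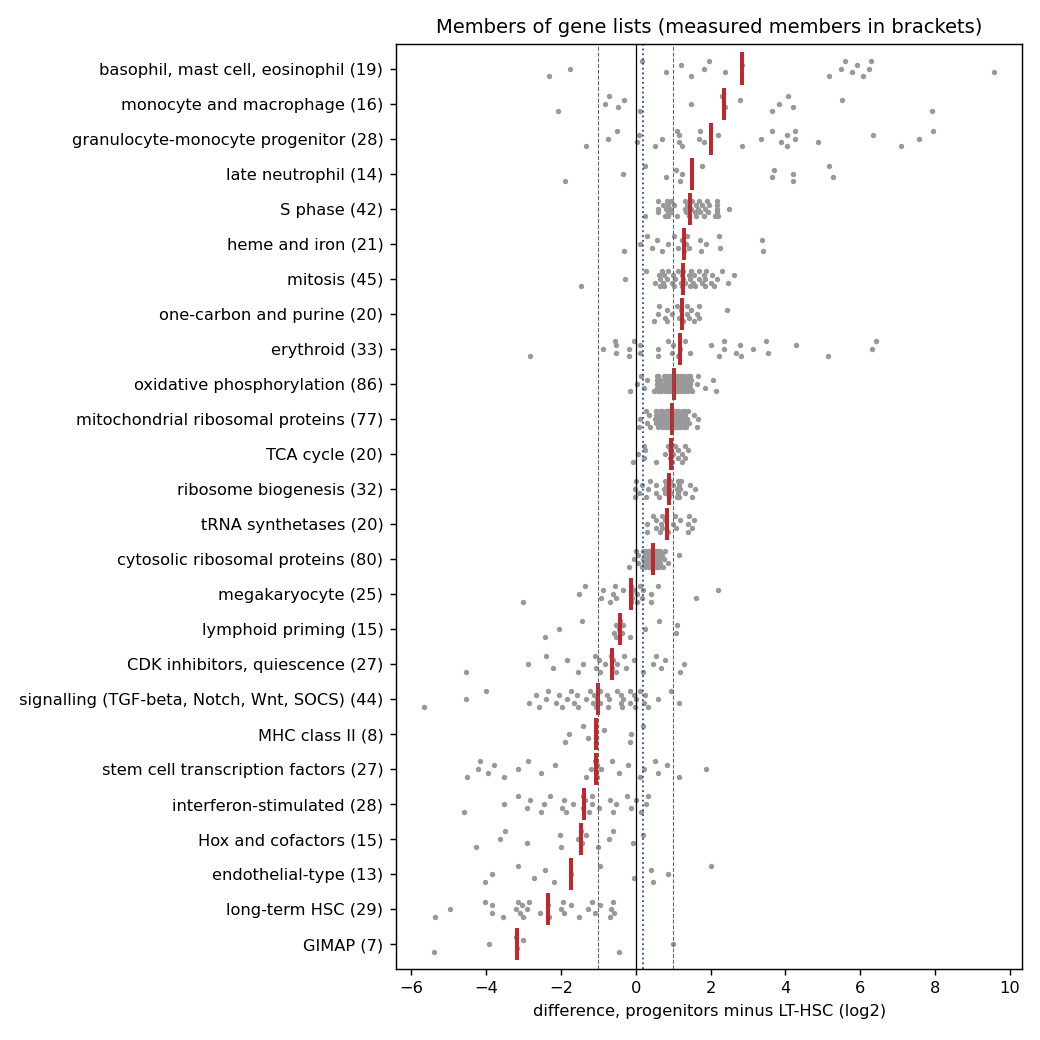
Differences of list members between progenitors and LT-HSC in log2 units (grey points, 1 per measured gene, bounds at their bound) with each list's median (red bar). The dotted line marks the median of all genes (0.18) and the dashed lines 2-fold, and the lists run from GIMAP genes (median -3.17) to basophil, mast cell and eosinophil genes (median 2.84).

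Of the CDK inhibitors, Cdkn1c, which encodes p57 and keeps stem cells quiescent, went from 2.80 to -1.75 (-4.55 ± 0.26). The others differed less: Cdkn1a by -0.96 ± 0.20, Cdkn1b by -0.67 ± 0.20, Cdkn2d by -0.83 ± 0.20 and Cdkn2c by 1.28 ± 0.21. Among 22 quiescence regulators 8 were lower and 1 was higher, or 9 and 0 centred, with Foxo1, a factor of resting cells, at -2.40 ± 0.21, the orphan nuclear receptor Nr4a2 at -2.22 ± 0.20, Nr4a1 at -1.84 ± 0.20 and Txnip at -1.42 ± 0.20, while Klf2 was higher at 1.19 ± 0.20. Of 12 genes of G1 phase 5 were higher and 0 lower. Ccne1, cyclin E1, went from 1.80 to 5.37 (3.57 ± 0.20) and the activator E2f1 from 2.76 to 4.46 (1.69 ± 0.20). Of the D cyclins, the earliest of the cycle, Ccnd1 (-0.56 ± 0.20) and Ccnd2 (-0.93 ± 0.20) lay below 0 and within 2-fold. Myc was near level (4.20 and 4.42).

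S phase genes were higher for 28 of 42, or 26 centred, with 0 lower (median 1.45). In the group that licenses and unwinds origins 13 of 15 were higher: the helicase subunit Mcm5 went from 4.92 to 6.86 (1.93 ± 0.20), the loading factors Cdt1 from 4.82 to 7.005 (2.18 ± 0.20) and Cdc6 from 0.20 to 2.31 (2.11 ± 0.21), and Mcm10 from 2.60 to 4.77 (2.17 ± 0.20). Polymerases and clamp genes were higher for 9 of 17, among them the flap nuclease Fen1 (4.80 to 6.75, 1.95 ± 0.20) and Pold1 (1.48 ± 0.20). The clamp Pcna differed by 0.80 ± 0.20. For nucleotide and histone supply 6 of 10 were higher, with Rrm2, a ribonucleotide reductase subunit, from 3.18 to 5.67 (2.49 ± 0.20) and Tk1, thymidine kinase, from 3.51 to 5.67 (2.16 ± 0.20).

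Mitotic genes were higher for 30 of 45, or 27 centred (median 1.27). The proliferation antigen Mki67 went from 1.51 to 3.99 (2.48 ± 0.20), cyclin B1, Ccnb1, from 3.05 to 4.87 (1.82 ± 0.20), and the kinases Plk1 from 3.47 to 5.50 (2.03 ± 0.20) and Aurka from 3.04 to 4.90 (1.86 ± 0.20). Kif2c, a kinesin that removes tubulin from microtubule ends, differed by 2.62 ± 0.31 and Cdca3 by 2.30 ± 0.20. The gene in the other direction was Aurkb, lower by a difference of -1.46 ± 0.36. That call did not hold with normexp background correction, where 0 mitotic genes were lower. Set beside ST-HSC, the lists differed in place: the median level of the mitotic genes was 1.35 in LT-HSC, 2.43 in progenitors, 3.18 in ST-HSC and 3.98 in Lin+ cells. Mki67 itself read 4.89 in ST-HSC and Cenpe, a kinetochore motor, 0.11, 0.94, 3.42 and 4.09 in that order, whereas Rrm2 read 4.63 in ST-HSC and Mcm5 6.06. Progenitor levels of Mki67 and Cenpe thus lay between the 2 stem cell fractions, and those of Rrm2 and Mcm5 above both. Over the whole S phase list the median level was 3.49 in LT-HSC, 4.92 in progenitors and 4.72 in ST-HSC, and for its polymerases and clamp genes 4.11, 4.80 and 4.83.

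One-carbon and purine genes were higher for 13 of 20, or 10 centred, with 0 lower (median 1.23). Mthfd2, a mitochondrial folate enzyme, went from -0.90 to 1.55 (2.45 ± 0.23), Shmt2 from 3.16 to 4.85 (1.69 ± 0.20) and Mthfd1 from 3.90 to 5.53 (1.63 ± 0.20). Of 86 genes of oxidative phosphorylation 47 were higher, or 23 centred, 16 with spike-in scaling and 4 after quantile normalization (median 1.01), with Atp5g1, an ATP synthase subunit, from 7.29 to 9.15 (1.86 ± 0.20) and Uqcrq of complex III from 6.85 to 8.52 (1.67 ± 0.20). TCA cycle genes were higher for 9 of 20, or 5 centred, 1 with spike-in scaling and 0 after quantile normalization (median 0.94, which became 0.33 after quantile normalization), among them Mdh2 (1.31 ± 0.20) and Sdhd (1.39 ± 0.20). None of the genes in these lists was 2-fold lower.

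Mitochondrial ribosomal proteins were higher for 37 of 77, or 15 centred, 9 with spike-in scaling and 5 after quantile normalization (median 0.96), with Mrps18b at 1.68 ± 0.20. Cytosolic ribosomal proteins gave 1 of 80, or 0 centred (median 0.46, and -0.09 after quantile normalization), and that gene was Rps27l (1.16 ± 0.20), a p53 target related to a ribosomal protein. Factors that process ribosomal RNA were higher for 12 of 24, with Nhp2 at 1.60 ± 0.20 and Bop1 at 1.496 ± 0.20, and RNA polymerase I genes for 0 of 8 (median 0.78). Centring left 5 genes of both groups and quantile normalization 1. Genes with a proteasome symbol (Psm) were higher for 15 of 48, or 8 centred and 4 after quantile normalization (median 0.87). The higher ones include Psmc3ip, which was grouped by its symbol and is not a proteasome subunit. For tRNA synthetases 8 of 20 were higher, or 5 centred, with Aars at 1.55 ± 0.20. Antioxidant genes were higher for 5 of 19, or 3 centred and 2 after quantile normalization, with Gsr, glutathione reductase, from 4.73 to 7.13 (2.40 ± 0.20).

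Glycolysis genes went both ways, with 4 of 23 higher and 5 lower (2 and 6 centred). Pgam1 went from 5.55 to 7.63 (2.09 ± 0.20) and Gapdh from 8.73 to 10.11 (1.39 ± 0.20). Lower were the isozymes Aldoc (4.93 to 0.99, -3.93 ± 0.21) and Ldhb (-1.06 ± 0.20), the glucose transporter Slc2a3 (-1.23 ± 0.20) and the pyruvate dehydrogenase kinase Pdk2 (-1.16 ± 0.21). Pdk4, another such kinase, was at least 2.46-fold lower. The partner isozymes Aldoa (0.87 ± 0.20) and Ldha (0.86 ± 0.20) lay above 0 and within 2-fold. Cholesterol genes had a median of -0.28, with 2 higher and 2 lower of 22 (0 and 7 centred), among them Idi1 (-1.20 ± 0.20) and Msmo1 (-1.43 ± 0.20) on the lower side.

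Of 33 measured erythroid genes 18 were higher in progenitors and 1 was lower (16 and 2 centred), with a median of 1.19. The factors at the head of the programme differed among themselves. Klf1, a red cell activator, went from 0.29 to 3.10 (2.80 ± 0.21) and Gata1 from 4.83 to 6.15 (1.33 ± 0.20), while the cofactor Zfpm1 (6.48 and 6.30), Nfe2 (6.71 and 6.18) and the globin repressor Bcl11a (5.63 and 5.11) were within 2-fold. Epor, the erythropoietin receptor, went from 2.82 to 4.84 (2.02 ± 0.20). Of the early markers, Aqp1, a water channel, went from 4.97 to 7.21 (2.23 ± 0.20) and Blvrb, biliverdin reductase B, from 3.48 to 5.84 (2.36 ± 0.20), and Car2 was level (6.64 and 6.60). Cnrip1 was the lower member (-2.82 ± 0.21).

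Red cell membrane genes were higher for 6 of 9. Rhd, a Rhesus antigen, went from 0.40 to 5.54 (5.15 ± 0.21), Kel, the Kell antigen, from -1.18 to 2.30 (3.48 ± 0.22), and Add2, a membrane skeleton subunit listed with the early markers, from -1.58 to 2.71 (4.28 ± 0.26). A late member was dim in progenitors: Slc4a1, the anion exchanger band 3, was at least 5.17-fold higher than in LT-HSC but read -0.57 against 8.92 in Lin+ cells. Sptb and Epb42 were not well above background on either array. Hba-a1, alpha globin, lay at -1.22, -2.02, 5.09 and 11.76 in LT-HSC, ST-HSC, progenitors and Lin+ cells (6.32 ± 0.23). Hba-a2 gave a difference of 6.42 ± 0.21, and since these 2 genes are near-identical their probes may not tell them apart. The beta globin genes differed among themselves. Hbb-bs was at least 8.76-fold higher, while Hbb-bt (-0.87 ± 0.20) lay below 0 and Hbb-b2 above 0, both within 2-fold. Whether the beta globin probes tell these genes apart was not tested.

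Promoter sequence was set beside these values for members that were higher together, from RefSeq's windows of 250 bases before to 50 bases after the gene start (build GRCm38.p6). The letters searched, on both strands, were those of the GATA motif, GATA with A or T before it and A or G after it. A match was found in 30.2% of 27025 windows of that length, in 17 of 29 windows of the erythroid list (58.6%) and in 10 of the 14 windows of its members called higher (71.4%). The list of eosinophil, basophil and mast cell genes gave 15 of 22 windows (68.2%), a larger share than the erythroid list as a whole. Among its members called higher the match was in 7 of 14 windows (50%), and among those called lower in 2 of 2. Of the heme and iron list 5 of 16 windows held one, of the long-term HSC list 5 of 23, of the mitotic list 9 of 39 and of the granulocyte-monocyte list 3 of 22. Such a match is a description of letters and not of a bound site. Below, 4 of these promoters are shown 5′ to 3′ on the gene's strand, because their genes carry the erythroid result (a regulator, a receptor, an antigen and a globin), with the GATA letters in capitals.
Klf1 (chr8:84901732-84902031, plus strand): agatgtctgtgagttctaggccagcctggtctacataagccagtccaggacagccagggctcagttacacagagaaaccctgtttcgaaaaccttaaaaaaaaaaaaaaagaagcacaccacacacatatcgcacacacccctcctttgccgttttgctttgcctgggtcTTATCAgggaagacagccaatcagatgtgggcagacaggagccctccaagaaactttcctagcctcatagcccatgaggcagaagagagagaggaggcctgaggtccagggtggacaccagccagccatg
Epor (chr9:21963527-21963826, minus strand): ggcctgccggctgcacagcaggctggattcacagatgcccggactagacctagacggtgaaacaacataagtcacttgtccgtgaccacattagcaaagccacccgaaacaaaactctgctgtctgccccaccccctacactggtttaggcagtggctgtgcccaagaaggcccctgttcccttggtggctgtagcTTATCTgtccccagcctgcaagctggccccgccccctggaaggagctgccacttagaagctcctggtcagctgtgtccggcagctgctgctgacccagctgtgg
Rhd (chr4:134864286-134864585, plus strand): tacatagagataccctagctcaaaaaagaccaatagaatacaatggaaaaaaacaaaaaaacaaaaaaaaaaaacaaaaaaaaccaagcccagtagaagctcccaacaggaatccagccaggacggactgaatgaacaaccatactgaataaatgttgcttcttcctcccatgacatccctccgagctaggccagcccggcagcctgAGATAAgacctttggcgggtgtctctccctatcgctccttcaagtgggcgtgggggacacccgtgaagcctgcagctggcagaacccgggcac
Hba-a1 (chr11:32283422-32283721, plus strand): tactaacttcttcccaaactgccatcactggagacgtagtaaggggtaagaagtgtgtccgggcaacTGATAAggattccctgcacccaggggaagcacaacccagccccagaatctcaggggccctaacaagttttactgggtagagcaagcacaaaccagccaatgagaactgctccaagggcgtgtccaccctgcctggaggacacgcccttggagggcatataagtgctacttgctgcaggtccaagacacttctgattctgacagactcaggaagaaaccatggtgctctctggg

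Heme synthesis genes, which erythroid cells need in bulk, were higher for 11 of 13, or 9 centred, with 0 lower (median 1.37). The first enzyme of the pathway has 2 genes. Alas1, the form used by all cells, went from 4.27 to 7.65 (3.38 ± 0.20), while Alas2, the erythroid form, was at least 3.32-fold higher and stayed dim in progenitors at -1.21 against 8.84 in Lin+ cells. Cpox went from 2.67 to 4.41 (1.74 ± 0.20), and Tmem14c, a transporter of the pathway's intermediate, from 3.45 to 5.34 (1.88 ± 0.20). Of 8 iron genes 3 were higher: Slc40a1, the iron exporter ferroportin, from -1.61 to 1.80 (3.41 ± 0.26), Steap3 (2.22 ± 0.21) and the importer Slc11a2 (1.35 ± 0.21). The ferritin chains Fth1 (0.29 ± 0.20) and Ftl1 (0.70 ± 0.20) were within 2-fold.

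Of 25 megakaryocyte genes 2 were higher and 3 lower, or 5 lower centred, and the median was -0.12. On the platelet surface, Treml1 lay at 4.14 in LT-HSC and 4.27 in progenitors, with 1.15 in ST-HSC, and Itga2b, the CD41 integrin chain, at 2.06 and 2.22, with 0.92 in ST-HSC. Both were thus as high in progenitors as in LT-HSC and lower in ST-HSC. Gp9, a subunit of the von Willebrand factor receptor, was lower in progenitors (4.57 to 3.23, -1.35 ± 0.20). Among granule genes, Pf4, platelet factor 4, went from 6.30 to 7.92 (1.62 ± 0.20) with 2.50 in ST-HSC, and Serpine2 was at least 4.6-fold higher, while Pdgfb was lower (-1.51 ± 0.21). The median level of the list was 1.94 in LT-HSC, 0.92 in ST-HSC and 1.09 in progenitors.

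**Figure D3:**
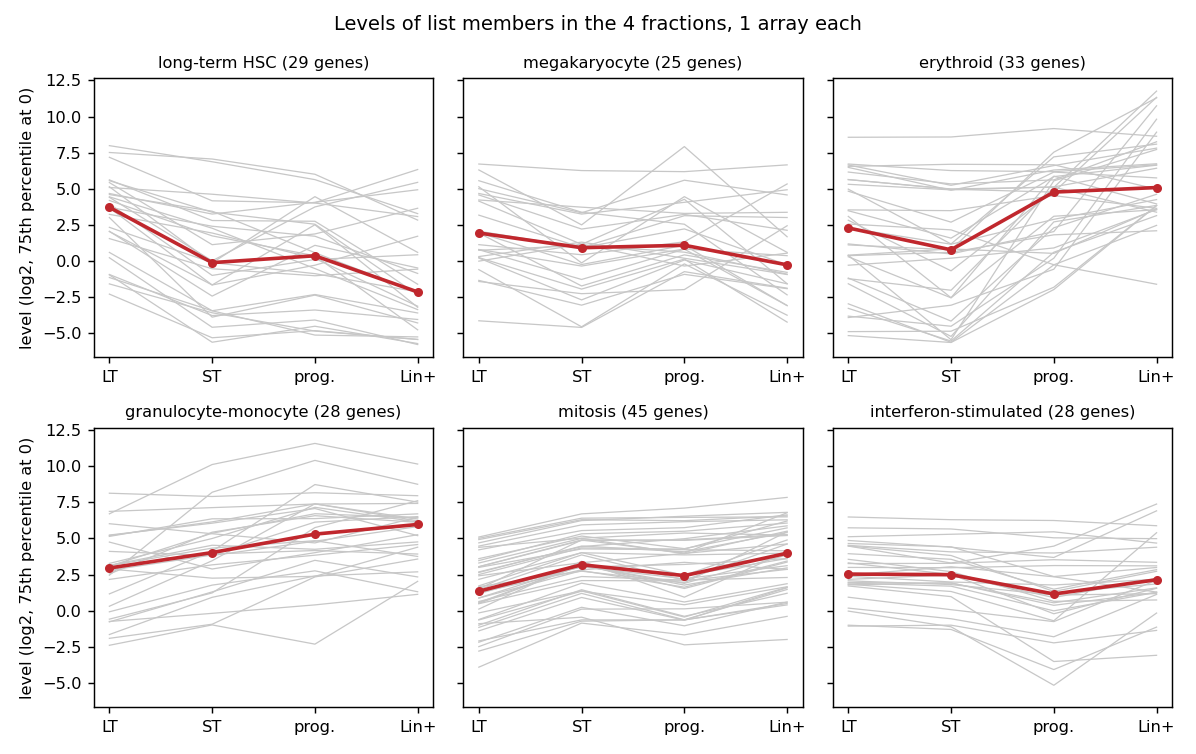
Levels of the measured members of 6 gene lists in LT-HSC, ST-HSC, progenitors and Lin+ cells (1 array each), in log2 units above the array's 75th percentile; grey lines are genes and the red line is the median. The erythroid median goes from 2.29 in LT-HSC to 4.77 in progenitors and the granulocyte-monocyte median from 2.95 to 5.30, while the long-term HSC median goes from 3.71 to 0.36.

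The granulocyte-monocyte progenitor list had 21 of 28 members higher and 1 lower, or 18 and 1 centred (median 2.01). Primary granule genes led, with 9 of 10 higher (median 4.07). Ctsg, cathepsin G, lay at 2.45 in LT-HSC and 10.40 in progenitors (7.95 ± 0.20), with 8.20 in ST-HSC, and Elane, neutrophil elastase, at 1.16 and 8.73 (7.57 ± 0.21), with 4.12 in ST-HSC. Ms4a3, a membrane protein of granulocyte-monocyte progenitors, went from 0.31 to 7.40 (7.09 ± 0.21), Prtn3, proteinase 3, from 3.27 to 7.16 (3.88 ± 0.20) and Prss57 from -0.77 to 3.49 (4.26 ± 0.22). For Ctsg and Elane the ST-HSC level lay between the others and the Lin+ level (8.75 and 7.51) below that of progenitors. Srgn, serglycin, which packs granule proteases, was already at 8.13 in LT-HSC and gave 8.16 in progenitors (0.03 ± 0.20).

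Of the myeloid transcription factors 6 of 9 were higher and 1 lower, or 4 and 1 centred. Cebpe, needed for the late granulocyte steps, went from -0.59 to 5.75 (6.34 ± 0.22) and Cebpa, which opens the programme, from -0.08 to 2.76 (2.84 ± 0.21). Irf8, a monocyte and dendritic cell factor, went from 2.54 to 6.58 (4.03 ± 0.20), Cebpd from 2.79 to 6.13 (3.34 ± 0.20) and Spi1, which encodes PU.1, from -0.75 to 0.40 (1.15 ± 0.22). Cebpb, the family member of emergency granulopoiesis, was the lower one (6.02 to 4.69, -1.33 ± 0.20). Receptors were higher for 6 of 9: Csf1r, the M-CSF receptor, from 3.08 to 6.71 (3.63 ± 0.20), the IgG receptor genes Fcgr3 (4.25 ± 0.29) and Fcgr2b (4.05 ± 0.25), and the common beta chain Csf2rb (1.68 ± 0.20), whose near-identical relative its probe may not separate. Csf3r, the G-CSF receptor, was within 2-fold (6.87 and 7.38).

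The promoter windows of Mpo, Elane and Ctsg were read in the same way, because these genes carry the granule result. Each holds GAGGAAG, a form of the purine-rich ETS motif that PU.1 is known to bind, on 1 strand or the other, and these letters were chosen after the windows had been seen. They occur in 13.5% of 27025 windows, in 9 of 22 windows of the granulocyte-monocyte list (40.9%) and in 5 of the 14 windows of its members called higher (35.7%). Mpo, Elane and Ctsg, in which the letters were found, are themselves in both counts. Besides them, only Fcgr3 and Prtn3 hold the letters among the members called higher. That share was thus largely set by the choice, the share of the whole list in part, and neither can be read as an enrichment. In the erythroid list 2 of 29 windows hold them. The capitals mark these letters or their reverse complement CTTCCTC.
Mpo (chr11:87793534-87793833, plus strand): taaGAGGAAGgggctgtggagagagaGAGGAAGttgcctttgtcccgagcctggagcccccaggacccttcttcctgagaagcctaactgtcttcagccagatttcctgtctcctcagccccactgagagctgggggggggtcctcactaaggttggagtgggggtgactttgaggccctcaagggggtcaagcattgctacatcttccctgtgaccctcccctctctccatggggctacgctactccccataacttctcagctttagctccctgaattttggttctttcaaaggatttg
Elane (chr10:79886062-79886361, plus strand): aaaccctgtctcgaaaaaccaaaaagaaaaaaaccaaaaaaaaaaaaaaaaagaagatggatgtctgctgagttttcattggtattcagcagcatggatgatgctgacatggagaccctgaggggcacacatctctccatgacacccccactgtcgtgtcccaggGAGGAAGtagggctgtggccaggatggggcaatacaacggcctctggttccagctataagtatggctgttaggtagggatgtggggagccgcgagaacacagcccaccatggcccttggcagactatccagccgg
Ctsg (chr14:56102525-56102824, minus strand): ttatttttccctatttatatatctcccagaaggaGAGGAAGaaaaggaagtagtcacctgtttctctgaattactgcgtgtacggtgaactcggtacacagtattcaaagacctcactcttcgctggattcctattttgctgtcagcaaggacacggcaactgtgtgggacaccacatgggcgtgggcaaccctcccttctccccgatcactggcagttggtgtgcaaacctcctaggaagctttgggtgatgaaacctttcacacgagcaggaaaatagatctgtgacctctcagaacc

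Genes of later granulocytes were present at lower levels than in mature cells. Of 14 measured genes 10 were higher and 1 lower, or 8 and 1 centred and 6 and 1 with normexp, and the median of the secondary and tertiary granule genes was 2.71. S100a8, a calprotectin chain, lay at 0.93, 6.21 and 10.42 in LT-HSC, progenitors and Lin+ cells (5.28 ± 0.21 from LT-HSC to progenitors). The secondary granule genes Camp (-0.96, 3.24 and 10.80) and Lcn2 (-1.58, 2.12 and 9.81) showed the same order, and Chil3 differed by 5.18 ± 0.25. The summed linear signal was taken over all 21 genes of the list on the array, measured or not, in units of each array's 75th percentile. It was 80.4 in LT-HSC, 298 in progenitors and 9818 in Lin+ cells. What share of the progenitor signal came from lineage-positive cells was not tested. Mmp9, Cd177 and Fpr1 were not well above background in progenitors or LT-HSC. Padi4 was lower (-1.88 ± 0.21).

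Monocyte genes were higher for 7 of 9 (median 3.63). F13a1, the A subunit of factor XIII, read -1.96 in LT-HSC, 4.50 in short-term cells and 5.96 in progenitors (7.92 ± 0.26), Ly86, a partner of a Toll-like receptor relative, at -0.42, 3.46 and 5.09 (5.51 ± 0.21), and Cx3cr1, the fractalkine receptor, at -1.94, 1.42 and 2.12 (4.06 ± 0.29). These 3 genes were high in ST-HSC too. Cd14 (4.20 ± 0.22) and the chemokine receptor Ccr2 (2.38 ± 0.29) were higher as well, whereas Lyz2, lysozyme, was not (1.31 and 0.50, with 6.96 in Lin+ cells). Of 7 macrophage genes 3 were higher and 1 lower, with Vcam1 at 3.84 ± 0.25 and Axl at -2.08 ± 0.28, and C1qa, Mertk and Siglec1 were not well above background on either array.

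Of 19 basophil, mast cell and eosinophil genes 15 were higher and 2 lower. The list's median was 2.84 with 7 members at their bound, and 1.89 over members well above background on both arrays. Prg2, Epx, Prg3, Mcpt8 and Prss34 were not well above background in LT-HSC. Prg2, major basic protein, was at least 762-fold higher with a progenitor level of 6.63, Epx, eosinophil peroxidase, at least 67.1-fold and Prg3 at least 48.5-fold. The basophil proteases Mcpt8 and Prss34 were at least 75.9-fold and at least 78.8-fold higher. For Ear1, an eosinophil ribonuclease with near-identical relatives that its probe may not separate, the difference was 5.78 ± 0.32. Hdc, which makes histamine, went from 0.07 to 5.99 (5.92 ± 0.21) and Alox5, which starts leukotriene synthesis, from -0.48 to 1.90 (2.38 ± 0.21). Fcer1a, the IgE receptor chain, was at least 7.15-fold higher, while the mast cell protease gene Mcpt4 was at least 3.39-fold lower and Il4 differed by -2.31 ± 0.25. In Lin+ cells the levels of Prg2 (9.91), Epx (6.55) and Ear1 (8.26) were above those of progenitors.

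**Figure D4:**
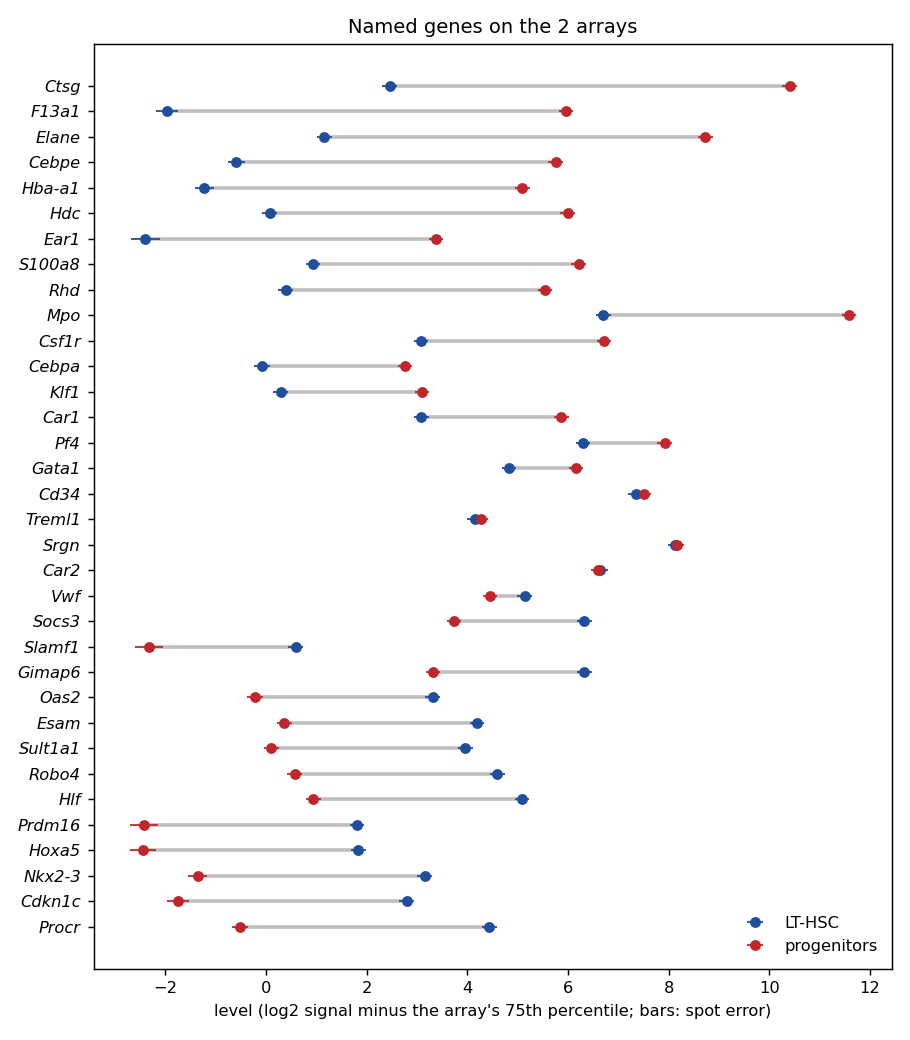
Levels of 34 named genes in LT-HSC (blue) and progenitors (red), 1 array each, in log2 units above the array's 75th percentile; bars are Feature Extraction's spot error and genes are ordered by their difference. Procr is at the foot with -4.96 and Ctsg at the top with 7.95.

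Of 15 lymphoid priming genes 2 were higher, or 0 centred, and 3 lower (median -0.43). Dntt, terminal transferase, lay at 5.95, 7.58 and 5.37 in LT-HSC, ST-HSC and progenitors and Flt3, a receptor of early lymphoid cells, at 4.35, 5.81 and 3.93, so both were within 2-fold between the fractions compared and higher in ST-HSC. Mn1 differed by -2.43 ± 0.23 and Lsp1 by -1.44 ± 0.20. Of 13 T and NK genes 2 were higher and 4 lower, with Thy1 at -1.89 ± 0.21, Lck at -1.47 ± 0.20 and Ccl5 at -1.44 ± 0.20. Ltb, lymphotoxin beta, was among the 15 largest measured differences on the lower side (6.61 to 2.22, -4.39 ± 0.20).

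Markers of cells outside the sort were checked on both arrays. Of 17 B cell genes on the array 6 were well above background in each fraction. The summed signal of all 17 was 30.2 in LT-HSC and 27.7 in progenitors against 581 in Lin+ cells. Cd79a and Pax5 were not well above background on either array. For the T and NK list the sums were 76.4, 196 and 255, and the progenitor sum rested largely on Nkg7, also a granule gene of myeloid progenitors (7.39). Of 6 measured plasma cell genes 3 were lower and 1 higher, and their median was -1.02 but 0.83 over members well above background on both arrays. The higher one was Jchain, the joining chain of antibodies (1.38 ± 0.23), and Mzb1 was at least 4.52-fold lower. With normexp background correction 0 of the 6 were called higher and 0 lower (median -0.22). The summed signal of the list was 46.5 in LT-HSC and 79.8 in progenitors. The stromal list had 3 of 5 measured genes lower and 1 higher, or 3 and 0 centred (median -1.03). Among them were Cxcl12, a niche chemokine (-1.79 ± 0.28), and Lepr, the leptin receptor, on the higher side (4.33 to 5.43, 1.097 ± 0.20). The stromal list's summed signal was 28.2 in LT-HSC and 48.1 in progenitors, and both sums rested largely on Lepr. Col1a1, Col3a1 and Dcn were not well above background on either array. The endothelial list, which shares Esam, Tek and Robo4 with the long-term HSC list, gave 224 and 197, with 7 of 13 genes lower, 1 higher and the defining gene Cdh5 not well above background on either array.

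Receptors and adhesion proteins other than those above gave both directions. Of 20 cytokine receptors 5 were higher and 5 lower. Il3ra, the interleukin 3 receptor, was higher (3.12 to 4.84, 1.73 ± 0.20) and Ifngr1 too (1.26 ± 0.20), while Il2rg was lower (-1.67 ± 0.21) and Il18r1 at least 2.44-fold lower. Among migration receptors 6 of 11 were lower: Jam3, a junctional protein of stem cells, went from 1.93 to -1.77 (-3.71 ± 0.27), its partner Jam2 was at least 9.81-fold lower, and S1pr1, the sphingosine phosphate receptor used to leave marrow, went from 3.11 to 0.35 (-2.76 ± 0.21). Cxcr4, the niche chemokine receptor, was within 2-fold (2.29 and 2.83). Integrins were 2 higher and 2 lower of 16, with Itgal, the LFA-1 alpha chain, from -0.88 to 1.502 (2.38 ± 0.22) and Itga9 at least 5.9-fold lower.

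Transporters of drugs and detoxifying enzymes showed both directions (6 of 28 higher and 8 lower, or 4 and 9 centred). Abcg2, the efflux pump of the side population assay, lay at 4.54 and 3.93 (-0.61 ± 0.20). Abcg4 went from -1.43 to 2.99 (4.42 ± 0.25) and Aldh1a7 from -1.23 to 1.88 (3.11 ± 0.22), whereas the cholesterol exporters Abca1 (at least 6.07-fold lower) and Abcg1 (-1.76 ± 0.20) were lower. Of 226 solute carriers 43 were higher and 32 lower (34 and 39 centred). Over all measured genes the shares were 15.5% higher and 13.8% lower (10.5% and 17.6% centred). Slc2a6 differed by 4.003 ± 0.22 and the amino acid transporter Slc38a5 by 3.92 ± 0.20, against -2.86 ± 0.21 for the monoamine transporter Slc18a2, and Slc16a9 was at least 21.7-fold lower.

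In the BCL2 family 5 of 12 were higher and 1 lower, and the 5 higher genes are known as activators of cell death. Pmaip1, which encodes Noxa, went from 0.25 to 3.52 (3.27 ± 0.21), Bid differed by 1.58 ± 0.20, Bak1 by 1.46 ± 0.20 and Bax by 1.26 ± 0.20, while Bmf, another activator, was lower (-2.24 ± 0.26). The protective gene Bcl2l1 was within 2-fold (4.70 and 3.93). Of 23 chromatin genes 1 was higher, Uhrf1, which guides maintenance methylation (1.83 ± 0.20), and 6 were lower, among them Dnmt3a (-1.23 ± 0.20), the Polycomb genes Ezh1 (-1.09 ± 0.20), Cbx6 (-1.37 ± 0.20) and Phc3 (-1.52 ± 0.23).

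Immediate-early genes, which respond to handling as well as to signals, were 5 higher and 7 lower of 23 (4 and 9 centred, 0 and 10 after quantile normalization). Jun (8.24 to 9.73, 1.49 ± 0.20), Fosb (1.55 ± 0.20) and Nfkbia (1.56 ± 0.20) were higher, and Fosl2 (-1.61 ± 0.20) and Dusp2 (-1.27 ± 0.20) lower, while Fos was near level (7.07 and 6.86). Of 15 heat shock genes 4 were higher. Hspa1a, an inducible chaperone, was at least 135-fold higher, from a signal not well above background in LT-HSC to 4.13 in progenitors, with 3.16 in Lin+ cells, and a near-identical copy of this gene may share its probe. The constitutive Hspa8 (0.70 ± 0.20) and Hsp90ab1 (0.64 ± 0.20) were within 2-fold.

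Outside the lists, the largest measured differences among genes whose probes agreed included further secreted and granulocyte genes. Slpi, a protease inhibitor of granulocytes, went from 0.02 to 7.57 (7.55 ± 0.21), Hp, haptoglobin, from -0.03 to 7.42 (7.45 ± 0.21), and the complement gene C3 from -0.78 to 5.17 (5.95 ± 0.22). Mefv, which encodes pyrin of the myeloid inflammasome, was at least 98.3-fold and Dmkn at least 137-fold higher. On the lower side, Fstl1, a secreted follistatin relative, went from 3.29 to -1.86 (-5.15 ± 0.27), Wfdc2 from 2.77 to -2.24 (-5.00 ± 0.32), Hid1 from 3.55 to -1.53 (-5.08 ± 0.24) and Plxdc2 from 5.04 to 0.37 (-4.67 ± 0.21). Evc2, a ciliary gene, was at least 32.1-fold, the basement membrane collagen gene Col4a2 at least 22.6-fold and Clip3 at least 25.4-fold lower. The levels of Slpi, Hp and C3 in ST-HSC (4.34, 3.89 and 1.69) lay between those of the 2 fractions, as did those of Fstl1, Wfdc2 and Hid1 (0.74, -0.40 and 0.36).

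Differences also followed the genomic span of genes. In 5 equal groups ordered by span, the median difference was 0.39 for the shortest genes, then 0.35, 0.23 and 0.08, and -0.15 for the longest. Higher genes made up 22.0% of the shortest group and 9.84% of the longest, and lower genes 12.9% and 19.4%. For ST-HSC against LT-HSC, which share 1 of these arrays, the medians lay between -0.03 and 0.05. The part of gene span in the results above was not tested beyond subtracting each group's median, which left the erythroid list at 0.97, the mitotic list at 1.16, the long-term HSC list at -2.72 and the interferon-stimulated list at -1.60, and took oxidative phosphorylation from 1.01 to 0.66 and cytosolic ribosomal proteins from 0.46 to 0.07.

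**Figure D5:**
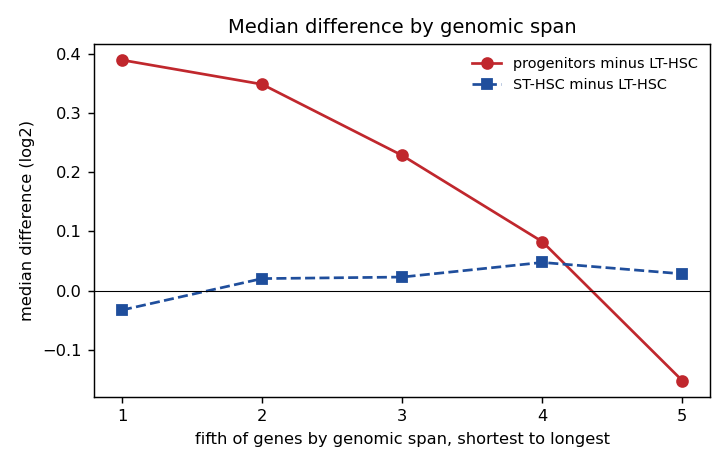
Median log2 difference of genes in 5 equal groups ordered by genomic span, for progenitors against LT-HSC (red) and ST-HSC against LT-HSC (blue). The red medians go from 0.39 in the shortest group to -0.15 in the longest, and the blue ones stay between -0.03 and 0.05.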

How the data were processed

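Each of the 4 sorted fractions was read on 1 Agilent array from 10 ng of Cy3-labelled total RNA, per the labels' protocols. The scanner files deposited by the authors hold spot intensity on a linear scale, background-subtracted and detrended within each array and not scaled between arrays, per the file headers. Agilent Feature Extraction 10.7.1.1 is named in the submitters' processing notes. The series' value table, as deposited, gives each probe a linear ratio: over 55249 probes with a single spot, 100% matched the processed signal over a fixed number per array (191, 217, 137 and 230 in LT-HSC, ST-HSC, progenitors and Lin+ cells) within 1%. This settles its scale and direction. The medians of its columns were 0.0619, 0.0630, 0.0704 and 0.0738, and it was run as an alternative.

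Control and outlier-flagged spots were left out, spots of 1 probe were averaged, and log2 signals were set to each array's 75th percentile over non-control probes. No spot was saturated. From 40.9% of probes in LT-HSC to 41.1% in progenitors were well above background, and 1 array per fraction limits the precision. Of 55678 probes, 26762 were named by accession through the RefSeq table of GRCm38.p6. Each gene was represented by its brightest probe over the 4 arrays, and 737 genes of 3033 with several measured probes have 1 of opposite sign, 73 of them among the called genes. The array design uses mm9, so spans served only to order genes.

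A gene was called at 2-fold, bounds included, and no test across replicates was possible. The 40 lists and 8 gene families (961 symbols, 942 on the array) and the members were chosen with earlier results of these data known. The list of genes to be named comprised the sorting and marker genes, in each direction the 15 largest measured differences and the 10 largest bounds where a gene's probes agreed, and up to 6 called and 4 uncalled members per list role; not all of them are printed. Spot means were not in the files used here, so the normexp alternative (limma 3.58.1, offset 50) ran on spot medians. The other alternatives changed the scaling, the background filter, the choice of probe, the source of the values and the call. Calls were tested on simulated data with spot error only, which cannot show how they would hold across mice, sorts or scalings. Python 3.11.15, pandas 2.3.3 and R 4.3.3 were used.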

Additional observations from a re-analysis of the deposited data

Results flagged for a closer look

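Probes without a gene name lay outside the comparison. Of 28916 such probes, 8858 were well above background on the progenitor array, the LT-HSC array or both, against 5 of 308 negative control spots on the progenitor array and 7 of 308 on the LT-HSC array. Of these, 1573 (17.8%) were at least 2-fold higher in progenitors and 758 (8.56%) at least 2-fold lower, with a median difference of 0.41, where named genes gave 15.5%, 13.8% and 0.18. Probes whose identifier is a genomic interval made up 4027 of the measured ones, of which 740 were higher and 384 lower (median 0.42).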

How the results depend on the processing

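No paired analysis was possible because each fraction has 1 array and the groups share fewer than 2 replicate numbers. There was no replicate to leave out.

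The split between higher and lower genes depends on the scaling. The main counts of 1941 higher and 1734 lower genes (52.8% higher) became 1057 higher and 29.2% with the percentile taken over detected probes alone, 1067 and 29.6% with the spike-in controls, and 1241 and 37.998% after quantile normalization. The share was 38.8% with median scaling, 37.3% with the median gene at 0, 56.3% over genes measured on both arrays and 39.3% with span group medians subtracted, an alternative chosen after seeing the data. These scalings moved the median of all genes by -0.32, -0.31, -0.23 and -0.18 for the detected percentile, spike-in, quantile and median settings. Normexp gave 1098 higher and 1056 lower genes (50.97%), and the 4-fold call 388 and 539 (41.9%). The number of lists with a median past 2-fold, 20, became 13 with normexp and 5 at 4-fold. The cause of the differences with normexp was not tested.

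Among named genes and list medians past 2-fold, the sign turned for Zfx with normexp (0.0329), for the plasma cell list's median over genes measured on both arrays (0.832), for the stromal list's median without background filter and floor (0.0276), and for Gimap4 with the mean of its probes (-1.96) and the median over probes (-0.495). No other named gene past 2-fold changed sign in any setting run. Medians within 2-fold crossed 0 in at least 1 setting for the lists of cytokine receptors, SLAM family, solute carriers, cytosolic ribosomal proteins, dendritic cells, transporters and detoxification, adhesion and niche, B cells, kinesins and megakaryocytes, and lay between -0.25 and 0.15 where they did. The basophil, mast cell and eosinophil list, highest by median in the main setting, came below the granulocyte-monocyte list with normexp (1.83 against 1.87) and without background filter and floor (1.83 against 1.84). Over genes measured on both arrays its median of 1.89 came below those of the later neutrophil (3.65), monocyte and macrophage (3.01) and granulocyte-monocyte (2.01) lists. The difference between the longest and shortest span groups was -0.54 and stayed negative in every setting run, with -0.41 after normexp. Signal over background limits 843 called genes, which have only a bound (346 higher and 497 lower).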
